A study of Rattus norvegicus with 15 samples.

Results

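The MHC class I processing machinery was followed here as 9 genes (Tap1, Tap2, Tapbp, Psmb8, Psmb9, Psmb10, B2m, Psme1 and Psme2) in the intestine of 15 male rats, with 1 array per rat and 5 rats in each of 3 groups. The genes were chosen by name, and every probe outside the controls whose gene name in the array files was one of the 9 was taken, which gave 12 probes among 41012 on the array. All 12 were well above background on all 15 arrays, so all were among the 17029 named probes that were tested. The Wistar group was nondiabetic rats without an operation. The GK-Sham-PF group was nonobese diabetic Goto-Kakizaki (GK) rats, a strain derived from Wistar, that had a sham operation with an incision 16 cm from the ligament of Treitz and were pair-fed. The GK-S-30 group was GK rats given Roux-en-Y gastric bypass (RYGB) with a Roux limb (RL) of 30 cm, the stretch of small intestine joined to the stomach. Both GK groups were operated on at 16 wk of age, and tissue was taken 14 wk postoperation after an overnight fast, from the RL in GK-S-30 rats and from the corresponding intestinal segment in the others. GK-Sham-PF differed from Wistar in strain, diabetes, operation and pair-feeding at once, and these cannot be told apart.

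Class I molecules show peptides from inside the cell to CD8 T cells. The proteasome cuts proteins into peptides, and interferon gamma exchanges its standard catalytic subunits for Psmb8, Psmb9 and Psmb10, which make the immunoproteasome, and raises Psme1 and Psme2, the alpha and beta subunits of the PA28 cap. The Tap1 and Tap2 transporter then carries peptides into the endoplasmic reticulum, Tapbp (tapasin) holds the empty class I molecule beside it, and B2m (beta-2-microglobulin) is the light chain of the finished complex. In the gut, epithelial cells as well as immune cells carry this machinery, and RNA of a whole segment holds both.

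By the coordinates in the array files (rat build rn4), 4 of the genes lie side by side on chromosome 20, with the Tap2 probe at 4770747 to 4770806, the Psmb8 probe at 4787980 to 4788039, the Tap1 probe at 4792827 to 4793962 and the Psmb9 probe at 4806341 to 4806400, within 35.7 kb. The first 3 are on the minus strand and Psmb9 is on the plus strand. Tapbp lies further along the same chromosome on the minus strand, at 5111712 to 5111882, so that the 5 genes span 341 kb of the MHC. Psmb10 is on chromosome 19 (35777711 to 35777770, minus strand), Psme1 and Psme2 are on chromosome 15 (33714566 to 33714852 on the plus strand and 33724194 to 33725273 on the minus strand), and the 4 B2m probes are on chromosome 3 between 108931019 and 108933854 on the plus strand. B2m probes 1 and 3 share 41 of their 60 bases and are not independent readings. The Tap1, Tapbp and Psme2 probes and B2m probes 1 and 3 are among those whose coordinates run over more than the 60 bases of a probe, so these probes join exons. The probes of the 3 genes that passed the test between GK-Sham-PF and Wistar rats are given 5′ to 3′, since every value for these genes is a reading of this stretch alone.
Psmb9: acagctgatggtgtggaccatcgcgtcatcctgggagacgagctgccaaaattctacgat
Psmb8: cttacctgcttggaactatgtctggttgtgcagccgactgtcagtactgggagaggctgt
Psme2: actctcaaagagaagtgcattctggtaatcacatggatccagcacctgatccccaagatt

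Sequence upstream of the genes was read from the RefSeq promoter table (build GRCr8, 250 bases before to 50 bases after each annotated start site), in which all 9 genes were found. The letters GAAA, any 2 bases and GAAA again, the core of the interferon-stimulated response element (ISRE) read by interferon regulatory factors, were searched on both strands and stood in the window of 7 of the 9 genes, against 1312 of 33469 promoters in the table (3.92%). Of the 13 standard proteasome genes with a promoter in the table, 2 held it (Psma4 and Psmb3). The choice by name did not use these letters. Genes that interferon gamma raises are among the 9, however, so 7 of 9 is not independent of that choice. The 7 stretches that hold the letters are given 5′ to 3′ on the strand of the gene, with the matched letters in capitals.
Tap1 (chr20:4668635-4668684, minus strand): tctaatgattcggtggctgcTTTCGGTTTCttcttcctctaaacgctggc
Tap2 (chr20:4652308-4652357, minus strand): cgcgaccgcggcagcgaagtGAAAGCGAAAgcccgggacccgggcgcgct
Tapbp (chr20:4967878-4967923, minus strand): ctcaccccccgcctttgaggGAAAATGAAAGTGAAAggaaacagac
Psmb8 (chr20:4657026-4657055, minus strand): cctcctcttggtgctgtggcTTTCGCTTTC
Psmb10 (chr19:50743293-50743385, minus strand): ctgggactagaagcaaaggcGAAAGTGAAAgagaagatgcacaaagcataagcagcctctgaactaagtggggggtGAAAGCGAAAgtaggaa
B2m (chr3:129549160-129549209, plus strand): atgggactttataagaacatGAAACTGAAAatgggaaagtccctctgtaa
Psme2 (chr15:33052775-33052824, minus strand): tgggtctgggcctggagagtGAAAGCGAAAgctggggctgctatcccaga

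The exact letters GAAAGCGAAA recurred in Tap2, Psmb8, Psmb10 and Psme2, on the opposite strand in Psmb8. Tapbp held 2 overlapping matches and Psmb10 held 2 apart. Psmb9 and Psme1 held none in this window. The annotated start sites of Tap1 and Psmb9 lie 457 bases apart and point away from each other, and their windows overlap by 44 bases, so the match upstream of Tap1 stands between the 2 genes. The kB-type letters (GGGA, any 2 bases, TTCC), as read by NF-kB, stood in Tap1, Tapbp and B2m (435 of all promoters, 1.3%), and the letters of the GAS type, the gamma-activated site (TTC, any 3 bases, GAA), in Psmb8 alone (2970 of all promoters, 8.87%). No match of these 3 motifs overlapped a match of another in these 9 windows. A match is a string of letters, and binding was not measured.

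**Figure D1:**
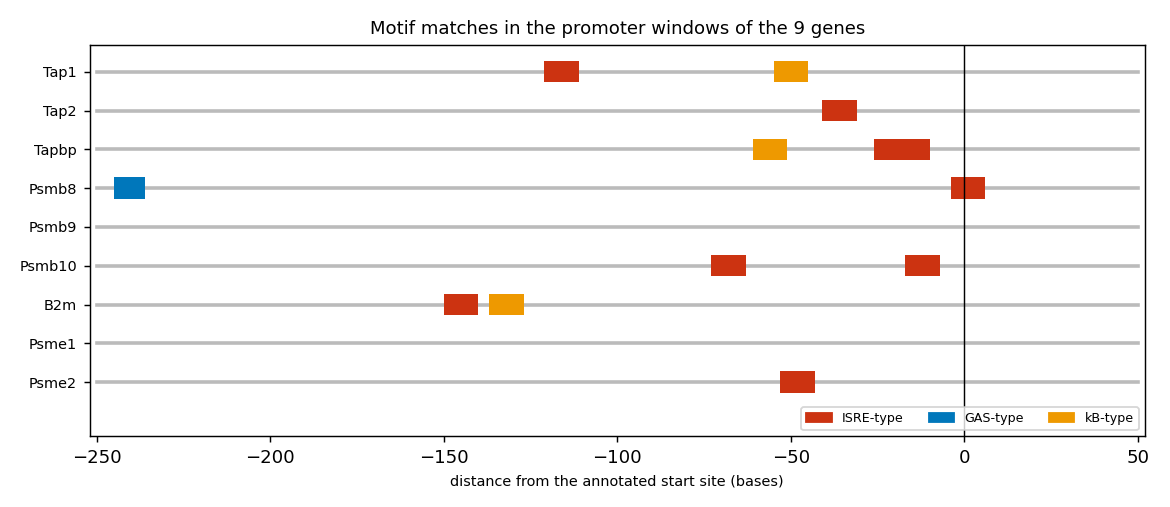
Matches to the ISRE-type, GAS-type and kB-type letters (coloured blocks) in the promoter window of each of the 9 genes. The horizontal axis is the distance in bases from the annotated start site (vertical line), from 250 bases before to 50 after; the ISRE-type block stands in 7 of the 9 windows.

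Before normalization, 2 arrays stood apart by brightness. For Wistar replicate 3 and for replicate 5 of GK-Sham-PF, the 75th percentile of the processed signal was 207 and 208, against 302 to 357 on the other 13 arrays. After normalization, both arrays still departed from their groups on these genes in the same way. Tap1, Psmb8 and Psme1 were the lowest of the group on both, while Tap2, Tapbp, Psmb9 and Psmb10 were the highest, so results are given with and without these 2 arrays. By the slide codes in the file headers, the arrays lay on 4 slides. Slide A held Wistar replicates 2 to 5, slide B Wistar replicate 1 and GK-Sham-PF replicates 1 to 3, slide C the other two GK-Sham-PF arrays with GK-S-30 replicates 1 and 2, and slide D the remaining GK-S-30 arrays. Wistar and GK-S-30 never shared a slide.

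The first comparison asked how the machinery of the sham-operated diabetic rats differed from that of Wistar rats. All 12 probes had a higher mean in GK-Sham-PF rats, and 3 passed the test (limma, Benjamini-Hochberg adjusted p under 0.05 over all 17029 probes): the immunoproteasome subunits Psmb9 and Psmb8 and the PA28 subunit Psme2, all higher. Over all tested probes 7.88% passed in this comparison, 3.74% passed and were higher, and 51.8% had a higher mean in GK-Sham-PF. The median log2 fold change of the 12 probes was 0.27, and that of all tested probes was 0.01.

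Psmb9 (the inducible counterpart of Psmb6) showed the largest difference of the 12 probes. Its log2 normalized intensity was 13.36, 13.36, 13.64, 13.46 and 13.38 in Wistar replicates 1 to 5 and 14.33, 14.03, 14.40, 14.45 and 14.45 in GK-Sham-PF replicates 1 to 5. The lowest GK-Sham-PF array was above the highest Wistar array. The means were 13.44 ± 0.12 and 14.33 ± 0.18 (SD, n = 5), a log2 fold change of 0.89 (SE 0.10, 1.86-fold, adjusted p = 1.81e-05). It passed under all 31 alternative settings, with log2 fold changes from 0.86 to 0.97 and adjusted p up to 0.033.

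Psme2 was at 13.63, 13.64, 13.83, 13.53 and 13.57 in the Wistar arrays and at 13.92, 13.97, 14.23, 14.19 and 14.22 in the GK-Sham-PF arrays. These groups did not overlap either, although Wistar replicate 3, a dim array, came within a small step of the lowest GK-Sham-PF array. The log2 fold change was 0.47 (SE 0.09, 1.38-fold, adjusted p = 0.003). Psme2 and Psmb9 were the only probes of the 12 whose arrays did not overlap in this comparison, against 9.06% of all tested probes.

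Psmb8 (the inducible counterpart of Psmb5) was at 12.65, 12.80, 12.31, 12.75 and 12.43 in the Wistar arrays and at 13.29, 13.23, 13.43, 13.20 and 12.67 in the GK-Sham-PF arrays. The groups overlapped through GK-Sham-PF replicate 5, a dim array, and the other 4 lay above every Wistar array. The log2 fold change was 0.57 (SE 0.14, 1.49-fold, adjusted p = 0.021), and 0.63 without the 2 dim arrays (adjusted p = 0.0027). Of single arrays, leaving out Wistar replicate 5 or GK-Sham-PF replicate 1, 2 or 3 left it short of the test, with adjusted p from 0.0503 to 0.061.

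The remaining 9 probes had higher means in GK-Sham-PF rats without passing the test. Tapbp was 11.65 ± 0.18 in Wistar and 12.06 ± 0.17 in GK-Sham-PF (SD, n = 5), a log2 fold change of 0.42 (adjusted p = 0.081). Tap1 was at 8.46, 8.54, 7.96, 8.78 and 8.44 in Wistar and at 9.14, 8.75, 9.38, 9.05 and 8.31 in GK-Sham-PF, a log2 fold change of 0.49 (SE 0.19, adjusted p = 0.155). The wide error of Tap1 held both dim arrays, each the lowest of its group. Its transport partner Tap2 gave 0.30 (95% interval -0.10 to 0.71, adjusted p = 0.433) and the PA28 partner Psme1 gave 0.24 (-0.05 to 0.53, adjusted p = 0.359). Psmb10, the third immunoproteasome subunit, gave 0.19 (-0.06 to 0.44, adjusted p = 0.430). The 4 B2m probes gave 0.06 to 0.13, the smallest differences of the 12.

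Without the 2 dim arrays, 5 probes passed instead of 3: Psmb9, Psmb8 and Psme2 as before, Tap1 at 0.52 (adjusted p = 0.041) and Psme1 at 0.27 (adjusted p = 0.032), where 9.23% of all tested probes passed. Without GK-Sham-PF replicate 5 alone the same 5 passed (8.65% of all), with Tap1 at 0.64 and Psme1 at 0.37. With array weights 6 passed (18% of all), Tapbp among them at 0.38 (adjusted p = 0.011). With the slide as a fixed block, which rests this comparison on slide B, where 3 GK-Sham-PF arrays met 1 Wistar array, Psmb9 passed (0.89, adjusted p = 0.033), Psmb8 was at 0.67 (adjusted p = 0.401) and Psme2 at 0.41 (adjusted p = 0.472). The block cut the probes that passed over the whole array from 1342 to 210 (1.23%). On slide B, each of the 3 GK-Sham-PF arrays was above the Wistar array for 10 of the 12 probes, against 33.2% of all tested probes; Tap2 overlapped and B2m probe 3 was level on 1 GK-Sham-PF array. A sequence difference between the strains under a probe and a difference in RNA level cannot be told apart in this comparison.

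**Figure D2:**
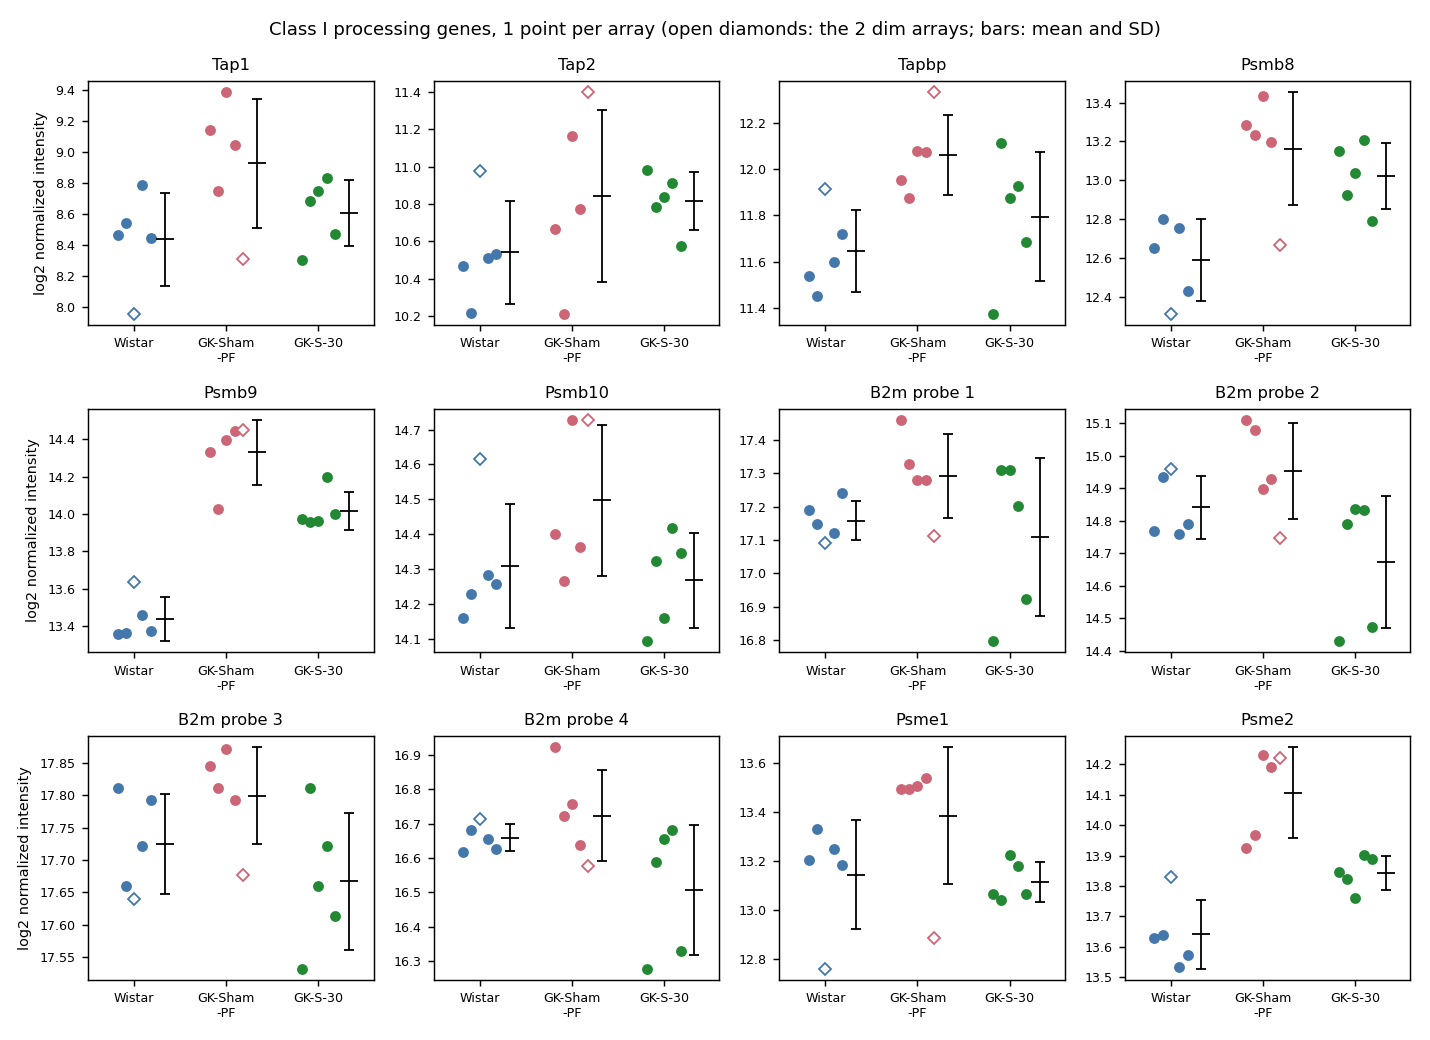
Log2 normalized intensity (vertical axes, a scale of its own for each probe) of the 12 probes on the 15 arrays, by group. Points are arrays, open diamonds the 2 dim arrays, and bars the mean and SD of 5; the Psmb9 and Psme2 groups Wistar and GK-Sham-PF are apart, while the B2m groups overlap.

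The second comparison asked what differed between the RL after RYGB and the segment of sham-operated GK rats. All 12 probes had a lower mean in GK-S-30 rats and 0 passed the test, while 4 had an unadjusted p under 0.05 (22.1% of all tested probes did) and 3 passed the methods' Tukey comparison before adjustment (15.1%). Over all tested probes 8.36% passed the adjusted test, 4.77% passed and were higher, and 46.2% had a higher mean after RYGB. The median log2 fold change of the 12 probes was -0.25, against -0.02 over all tested probes. The first comparison and this one share the GK-Sham-PF arrays, so the higher means there and the lower means here are not independent.

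Psmb9 was at 13.97, 13.96, 13.96, 14.20 and 14.00 in GK-S-30 replicates 1 to 5. Only GK-S-30 replicate 4 reached the range of the GK-Sham-PF arrays, through their lowest array, replicate 2. The log2 fold change was -0.31 (SE 0.10, 95% interval -0.52 to -0.10, adjusted p = 0.063). It passed in 5 of 31 alternative settings, among them those without GK-Sham-PF replicate 2 (-0.39, adjusted p = 0.022), without GK-S-30 replicate 4 (-0.36, adjusted p = 0.046) and without Wistar replicate 3 (-0.31, adjusted p = 0.044).

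Psme2 was at 13.85, 13.82, 13.76, 13.90 and 13.89 in GK-S-30 rats, below every GK-Sham-PF array, and was the only probe of the 12 whose arrays did not overlap in this comparison (8.41% of all tested probes did not). Its log2 fold change was -0.26 (SE 0.09, adjusted p = 0.083). Psme1 was at 13.06, 13.04, 13.22, 13.18 and 13.06, below the 4 GK-Sham-PF arrays of normal brightness, which lay between 13.50 and 13.54, and above the dim one at 12.88. Its log2 fold change of -0.27 (adjusted p = 0.257) became -0.40 without the 2 dim arrays (adjusted p = 0.0035). Tap1 likewise went from -0.32 (adjusted p = 0.356) to -0.47 (adjusted p = 0.046). These were the 2 probes that passed without the dim arrays, where 11% of all tested probes passed. Without GK-Sham-PF replicate 5 alone, Psme1 passed (adjusted p = 0.036; 7.62% of all).

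The light chain probes agreed in direction and differed in size. B2m probe 2 gave -0.28 (SE 0.11, adjusted p = 0.128), probe 4 gave -0.22 (adjusted p = 0.204), probe 1 gave -0.18 (adjusted p = 0.348) and probe 3 gave -0.13 (adjusted p = 0.352). In each, GK-S-30 replicate 1 was the lowest of its group and replicate 5 was next to it. Probe 1 is printed in 10 spots per array, of which 1 was dropped as an outlier on 1 array. The SD of their log2 signals within an array was 0.014 to 0.066, against 0.058 to 0.24 between arrays of a group.

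Tapbp (-0.27, adjusted p = 0.270), Psmb10 (-0.23, adjusted p = 0.275) and Psmb8 (-0.14, adjusted p = 0.631) had lower means with intervals that included 0. Tap2 was level between the GK groups, at -0.03 (95% interval -0.43 to 0.38). Within slide C, which held 2 arrays of each group, 11 of the 12 probes again had a lower mean in GK-S-30, against 51.3% of all tested probes. Psmb9 (-0.48), Psme2 (-0.37) and Psmb10 (-0.34) did not overlap there, and neither did 38% of all tested probes, while Psmb8 was higher by 0.11. Tap2 turned positive without the dim arrays (0.11).

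The third comparison set the RL of GK-S-30 rats against the Wistar segment. Of the 12 probes 6 had a higher and 6 a lower mean, and 2 passed the test, Psmb9 and Psmb8, both higher. In this comparison 24.1% of all tested probes passed, 11.9% passed and were higher, and 48.6% had a higher mean. Thus 2 of 12 is under the share of all probes that passed. It is above the share that passed and were higher, but rests on 2 probes, and the difference in shares was not tested. Psmb9 was 14.02 ± 0.10 in GK-S-30 against 13.44 ± 0.12 in Wistar (SD, n = 5), a log2 fold change of 0.58 (SE 0.10, adjusted p = 5.42e-04), with no overlap of the arrays (18.3% of all tested probes did not overlap). Psmb8 was at 13.15, 12.92, 13.04, 13.21 and 12.79 in GK-S-30, and its lowest array fell just under the highest Wistar array at 12.80. Its log2 fold change was 0.43 (SE 0.14, 1.35-fold, adjusted p = 0.038). Leaving out Wistar replicate 1, 3 or 5 or GK-S-30 replicate 1, 3 or 4 left Psmb8 short of the test, with adjusted p from 0.059 to 0.088, so that 1 probe passed in place of 2. Psme2 was at 0.20 (adjusted p = 0.109), and at 0.25 without the 2 dim arrays, where it passed (adjusted p = 0.034) as did 28% of all tested probes.

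B2m, Psme1 and Psmb10 were near the Wistar level in GK-S-30 rats, with log2 fold changes from -0.17 to -0.03 and intervals that included 0. Tap2 was at 0.28 (95% interval -0.13 to 0.68), close to its value in GK-Sham-PF rats. No slide held both groups, so slide and group can be separated here only through the GK-Sham-PF arrays. With the slide as a fixed block 0 of the 12 probes passed, with Psmb9 at 0.41 (adjusted p = 0.464) and Psmb8 at 0.77 (adjusted p = 0.315), and 268 probes of the whole array (1.57%) passed in place of 4101.

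**Figure D3:**
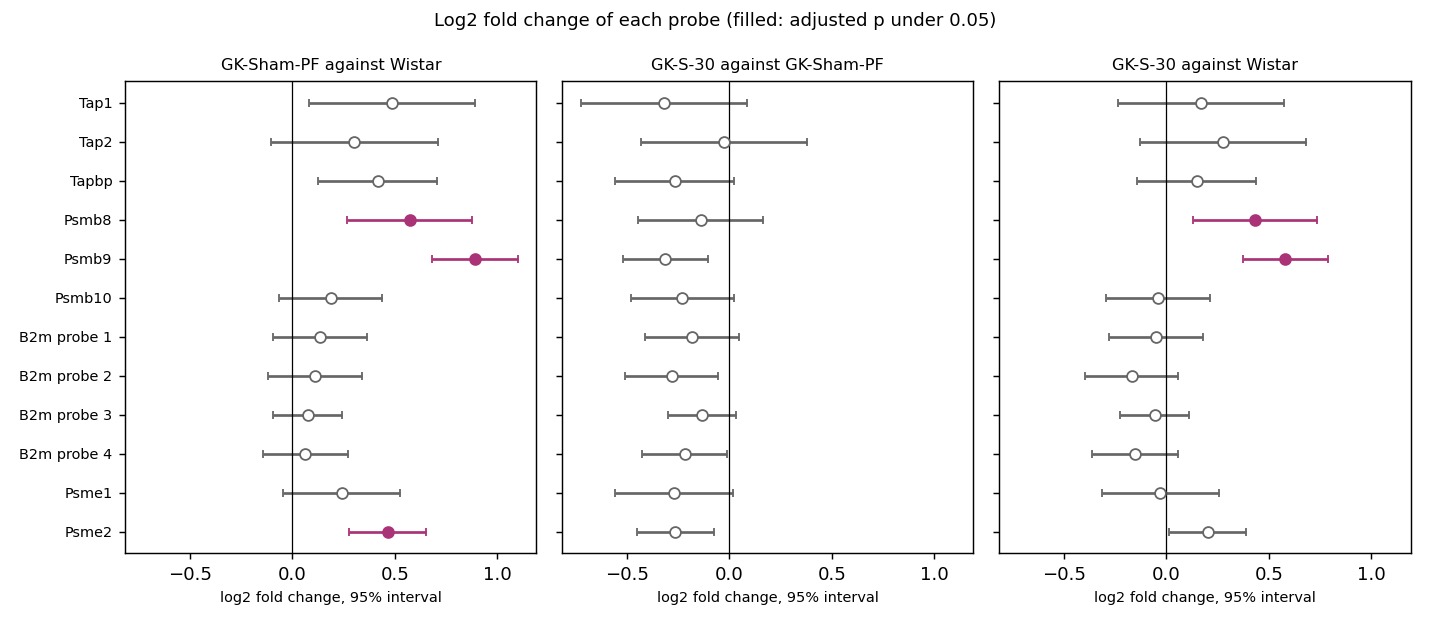
Log2 fold change of each of the 12 probes (horizontal axes) with its 95% interval in the 3 comparisons, filled where the adjusted p was under 0.05. Every probe is to the right of 0 between GK-Sham-PF and Wistar and to the left of 0 between the GK groups, with 3 and 0 that passed.

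Across the groups Psmb9 had the order Wistar, GK-S-30, GK-Sham-PF from low to high, and the same order held for the means of Tap1, Tap2, Tapbp, Psmb8 and Psme2. Of the neighbours in that order, Wistar and GK-S-30 differed past the threshold for Psmb9 and Psmb8, and the GK groups for none of these genes. For Psmb10, Psme1 and the 4 B2m probes the order was GK-S-30, Wistar, GK-Sham-PF, and no neighbours differed past the threshold.

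Each immunoproteasome subunit replaces a standard one, so the inducible subunit was set against its standard counterpart within each array, as a difference of log2 intensities. Only the change of this difference between groups can be read, since the 2 probes have their own brightness. Psmb9 minus Psmb6 was 1.61, 1.61, 2.07, 1.73 and 1.70 in Wistar, 2.57, 2.27, 2.46, 2.81 and 2.71 in GK-Sham-PF, and 2.06, 2.37, 2.41, 2.48 and 2.15 in GK-S-30. The mean was higher by 0.82 in GK-Sham-PF than in Wistar, with no overlap, and the change from GK-Sham-PF to GK-S-30 was -0.27, with overlap. GK-S-30 replicate 1 and the dim Wistar array were nearly level, at 2.06 and 2.07.

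Psmb8 minus Psmb5 was -0.92, -0.55, -1.48, -0.78 and -1.05 in Wistar, -0.24, -0.20, -0.30, -0.41 and -1.32 in GK-Sham-PF, and -0.45, -0.52, -0.21, -0.51 and -0.93 in GK-S-30. The dim arrays were the lowest of their groups, and the other 4 GK-Sham-PF arrays lay above all Wistar arrays. Psmb10 minus Psmb7 had equal means in Wistar and GK-Sham-PF (3.00 and 3.00) and was 2.67 ± 0.17 (SD, n = 5) in GK-S-30. Of the standard subunits themselves, between GK-Sham-PF and Wistar, Psmb5 was at 0.11, Psmb6 at 0.07 and Psmb7 at 0.19, and none of these passed, while Psmb7 passed in GK-S-30 against Wistar (0.29, adjusted p = 0.028).

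**Figure D4:**
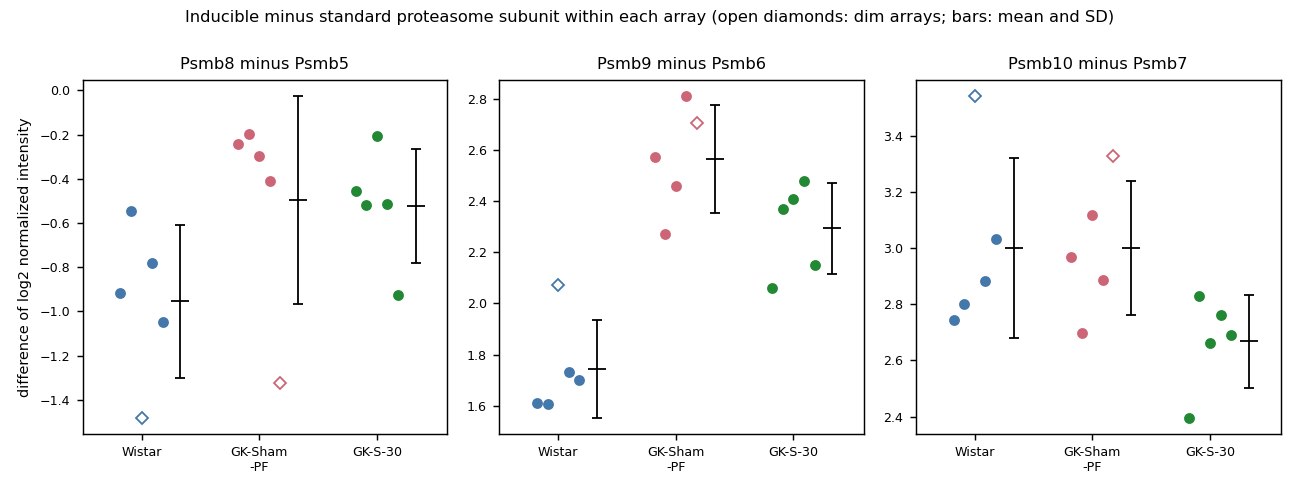
Difference of log2 normalized intensity between each inducible proteasome subunit and its standard counterpart within an array (vertical axes), by group. Points are arrays, open diamonds the 2 dim arrays, and bars the mean and SD of 5; Psmb9 minus Psmb6 is the 1 of the 3 in which the GK-Sham-PF arrays all lie above the Wistar arrays.

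Other genes of the pathway were read from 5 lists. Of all tested probes, 7.88% passed between GK-Sham-PF and Wistar, 8.36% between the GK groups and 24.1% between GK-S-30 and Wistar. The class I heavy chains and their relatives, which B2m pairs with, had 30 tested probes of 22 genes. Between GK-Sham-PF and Wistar, 12 of these probes rose and 4 fell, with a median log2 fold change of 0.36. The largest was an RT1-EC2 probe at 3.07 (8.40-fold, adjusted p = 5.18e-11), followed by an RT1-A2 probe at -1.94 (adjusted p = 8.38e-08), an RT1-CE4 probe at 1.65 and an RT1-S3 probe at 1.53. Different probes of a gene disagreed: another RT1-A2 probe was at 1.07 (adjusted p = 7.73e-05), and another RT1-EC2 probe was at 0.27 (adjusted p = 0.228). The RT1 heavy chain genes include near-identical copies that vary between strains, so the copy that a probe of these reads is uncertain.

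Between the GK groups, all 30 heavy chain probes had a lower mean in GK-S-30 and 0 passed, with a median of -0.25, the same as for the 12 processing probes. Between GK-S-30 and Wistar 11 rose and 6 fell, among them RT1-EC2 at 2.80, RT1-A2 at -2.28, RT1-CE10 at -1.70 and RT1-CE4 at 1.40. Both comparisons share the Wistar arrays.

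Of the loading and trimming list, which holds the chaperones and peptidases of the endoplasmic reticulum and cytosol, 1 of 28 probes passed between GK-Sham-PF and Wistar. This was Erap1, the aminopeptidase that trims peptides to class I length, at 0.37 (SE 0.08, 1.29-fold, adjusted p = 0.0055). It also passed between GK-S-30 and Wistar (0.28, adjusted p = 0.015), with a Lap3 probe at 0.62, a Thop1 probe at 0.45 and Sec61g at 0.37. This made 4 of 28 (14.3%), under the 24.1% of all tested probes that passed there. Other probes of Lap3 (0.16 and -0.07) and Thop1 (0.06) did not pass. None of the 28 passed between the GK groups, where their median was -0.02.

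The 14 standard proteasome genes had 16 tested probes, and all 16 had a slightly higher mean in GK-Sham-PF than in Wistar, with a median of 0.11 and 1 that passed (Psma2, 0.30, adjusted p = 0.045). Of the 16, 14 had a lower mean after RYGB than after the sham operation, with a median of -0.10 and 0 that passed. In GK-S-30 against Wistar, Psma2 and Psmb7 passed (12.5% of the 16, against 24.1% of all tested probes). The 32 probes of proteasome regulators and assembly factors had a median of 0.11 between GK-Sham-PF and Wistar and 0 that passed. Between the GK groups their median was -0.0018 and 0 passed. In GK-S-30 against Wistar 1 of the 32 passed (3.12%), Adrm1, a ubiquitin receptor, at 0.89 (adjusted p = 0.014). The mean log2 level of Adrm1 was low, at 6.50 in GK-S-30 and 5.61 in Wistar.

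**Figure D5:**
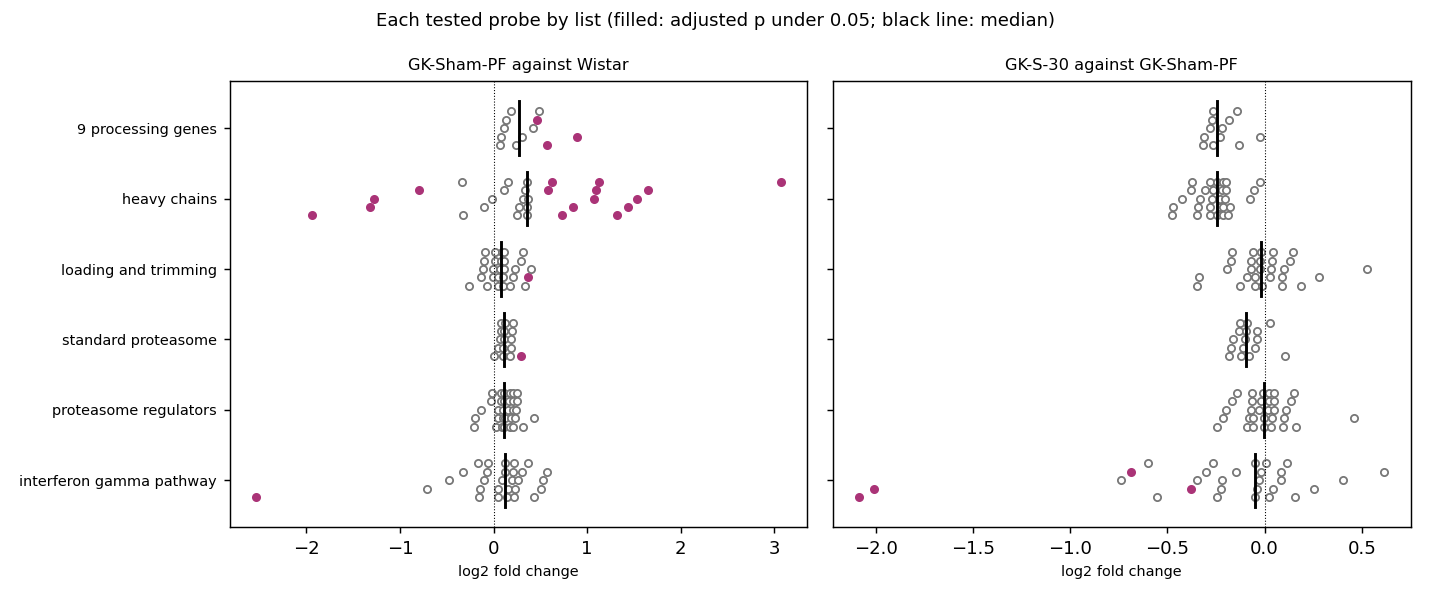
Log2 fold change (horizontal axes) of each tested probe of the 9 processing genes and of the 5 pathway lists between GK-Sham-PF and Wistar (left) and between the GK groups (right). Filled points passed at an adjusted p under 0.05 and black lines are medians; heavy chain probes spread from -1.94 to 3.07 on the left and are all below 0 on the right.

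The interferon gamma pathway list had 29 tested probes of 25 genes. Between GK-Sham-PF and Wistar 0 rose and 1 fell, Ubd (FAT10, a ubiquitin-like protein that interferon gamma induces), at -2.54 (adjusted p = 2.05e-05). Irf1 was at 0.21 (adjusted p = 0.794). Ifng itself was well above background on 2 of 15 arrays and was not tested, and no probe was matched to Nlrc5, the class I transactivator.

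Between the GK groups, 4 of the 29 probes fell and 0 rose (13.8%, against 8.36% of all tested probes that passed). Among them were Cxcl10, a chemokine that draws T cells, at -2.09 (SE 0.26, adjusted p = 2.25e-04), and Ubd at -2.01 (SE 0.28, adjusted p = 5.25e-04). Between GK-S-30 and Wistar, 2 of the 29 probes rose and 3 fell (17.2%, under the 24.1% of all tested probes that passed). Among them were Ubd at -4.55, Cxcl10 at -1.96, Socs1 at 0.83 and Stat2 at 0.76. The mean log2 levels of Cxcl10, Socs1 and Stat2 were low, at 6.37, 6.41 and 6.86 in GK-S-30 and 8.33, 5.59 and 6.10 in Wistar. Irf1 did not pass between the GK groups (0.08, adjusted p = 0.916).

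Markers of other cell types moved as well, and fewer cells of a type and less RNA per cell cannot be told apart in these bulk samples. All 15 villus enterocyte genes on the array were tested, and their mean log2 level was 15.30 to 15.76 in Wistar, 15.33 to 15.80 in GK-Sham-PF and 15.27 to 15.70 in GK-S-30, which places intestinal epithelium in every sample. Of the 24 T and NK cell probes, 3 rose between GK-Sham-PF and Wistar and 10 fell between the GK groups, where all 24 had a lower mean (median -0.49). The list's mean level, over 20 of 22 genes, was 8.45 to 8.85 in Wistar, 8.46 to 9.03 in GK-Sham-PF and 8.03 to 8.52 in GK-S-30. Their part in the lower means of the 12 processing probes was not tested.

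Myeloid markers had a median of -0.30 in GK-S-30 against the sham group, with 2 of 19 probes that fell, and a mean level of 10.37 to 10.74 in GK-Sham-PF and 10.19 to 10.51 in GK-S-30. Smooth muscle markers rose in GK-S-30, with 5 of 11 probes that passed and a level of 12.00 to 12.35 against 10.60 to 11.66 in GK-Sham-PF. B and plasma cell markers had 3 of 7 probes that rose. In the other lists, 2 of 19 villus enterocyte, 1 of 9 endothelium, 1 of 5 blood and 2 of 5 distal ileum probes rose between the GK groups, and 1 of 8 pancreatic acinar probes fell. Between GK-Sham-PF and Wistar none of the villus enterocyte, smooth muscle, endothelium and blood probes passed, 2 of 7 B and plasma cell probes rose, 1 myeloid probe rose and 2 fell, 1 distal ileum probe fell, and 1 pancreatic acinar probe rose and 1 fell. Beside these counts, 8.36% of all tested probes passed between the GK groups and 7.88% between GK-Sham-PF and Wistar. The mean level of the pancreatic acinar list was at most 6.60 in Wistar and 6.94 to 7.29 in GK-Sham-PF, with no overlap. The median log2 fold change of its 8 probes was only 0.07 there, and 5 of the 8 had a higher mean. After RYGB the list level was 6.68 to 7.17, also above every Wistar array, although the median change of the probes from Wistar was -0.26. The list level therefore did not stand for a shift of all its probes. Between GK-S-30 and Wistar, 11 of 24 T and NK cell and 6 of 19 myeloid probes fell. B and plasma cell (5 of 7) and smooth muscle (6 of 11) probes rose. Of all tested probes 24.1% passed there, close to the shares of the villus enterocyte (26.3%) and endothelium (22.2%) lists. The other lists had 31.6% or more. In that comparison 3 villus enterocyte probes rose and 2 fell, 1 endothelium probe rose and 1 fell, 2 blood probes rose, 3 distal ileum probes rose and 1 fell, and 2 pancreatic acinar probes rose and 3 fell. Their part in the results was not tested either.

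The genomic neighbours on chromosome 20 gave a further view of the MHC members. Between the Tap2 and Tapbp probes (4770747 to 5111882, rn4) lay 19 other tested probes of 16 genes. Between GK-Sham-PF and Wistar 3 of the 19 rose and 2 fell, where 7.88% of all tested probes passed. Among those that passed were both RT1-A2 probes of the heavy chain list, at 1.07 and -1.94. Single neighbour probes ran from -1.94 to 1.64, so their median of 0.04 hides changes in both directions. The 5 members in this stretch had a median of 0.49, and 2 of them rose. Between the GK groups 0 of the 19 rose and 1 fell, where 8.36% of all tested probes passed. The neighbours' median was -0.15 there and that of the members was -0.27.

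Within groups, the 12 probes did not vary as a unit. After each group's mean was taken off, the 66 correlations between probes over 15 arrays ran from -0.68 (Tap2 and Psme1) to 0.91 (B2m probes 2 and 4), with a median of 0.28. Tap1, Psmb8 and Psme1 went together (0.78 to 0.85), and Psme1 went against Psmb10 (-0.64). Without the 2 dim arrays these were 0.43 to 0.53 and 0.0062, the lowest was -0.41 (B2m probe 2 and Psme2), the highest 0.90 and the median 0.31. The correlations share arrays and are descriptions.

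The genes whose brightest probe was most like the mean of the 9 within groups, of 13024 genes over 15 arrays, were Wipi2 (r = 0.87), Acad10 (r = 0.82), Nub1 (r = 0.81), Pknox1 (r = 0.81) and Eya2 (r = 0.80). Without the dim arrays the same 5 had r from 0.77 to 0.86, and another gene, Ice2, had the highest (0.90). The 5 were picked as the top of 13024 genes over 15 arrays, and such a choice favours high values. The r that chance would give was not worked out, and the ranking is a description.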

How the data were processed

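Total RNA of 15 intestinal samples, 5 rats per group, was read on 1-colour Agilent arrays of the whole rat genome, 1 array per rat. The authors deposited 1 file of spot intensity values per array, extracted with Feature Extraction 10.7, in which the processed signal has background removed and is not normalized between arrays. The series matrix, used as an alternative, holds the log2 values that the authors obtained by quantile normalization in GeneSpring.

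Here outlier spots were dropped, the processed signals of each probe's remaining spots were averaged, and the log2 of the averages was quantile normalized (limma 3.58.1, R 4.3.3). Probes were named through RefSeq tables by accession (17541), symbol (3098) or synonym (539), while 1325 kept the name in the files and 18509 had none. Named probes were tested where 1 group or more had them well above background on all of its arrays (17029 probes of 13024 genes). limma was fitted to all 15 arrays, each probe apart, with Benjamini-Hochberg adjustment across the 17029 probes and a threshold of 0.05. The scripts were tested on simulated data. The number of arrays limits the precision.

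The text names the 9 genes, Psmb5, Psmb6, Psmb7, Irf1, Nlrc5 and Ifng, at most 4 genes that passed per pathway list and comparison (those of largest log2 fold change), and the 5 genes most like the mean of the 9. Psma4, Psmb3, Ice2 and further probes of RT1-A2, RT1-EC2, Lap3 and Thop1 were named after their values were seen. One further gene of the rule is not reported here. The members and lists were chosen with earlier results of these data known. Alternatives were another scaling, background correction and value table, other filters on probes and spots, slide and replicate number as blocks, array weights, the methods' Tukey comparison, fits of 2 groups only, and each array left out. Leaving out both dim arrays was added after seeing the data. No rn4 genome was used here, so exons and UTRs under the probes were not annotated.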

Additional observations from a re-analysis of the deposited data

Results flagged for a closer look

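An array was called far from the other 4 of its group where its gap to its nearest neighbour was over 0.71 of the group's range. Of 36 groups of 5 arrays (12 probes in 3 groups), 5 held such an array. Chance gives about 1 in 20 for a single group. The 36 groups share arrays and are not independent, so the count is not a test. For Psmb9, GK-Sham-PF replicate 2 was the lowest of its group at 14.03 against 14.33 for the next (0.718 of the range), and GK-S-30 replicate 4 was the highest at 14.20 against 14.00 (0.815). For Psmb10, Wistar replicate 3, a dim array, was the highest at 14.62 against 14.28 (0.725). For Psme1, the dim arrays were the lowest of their groups, Wistar replicate 3 at 12.76 against 13.18 (0.743) and GK-Sham-PF replicate 5 at 12.88 against 13.50 (0.931). The part of array brightness in these gaps was not tested.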

How the results depend on the processing

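Of the 12 probes, 3 passed for GK-Sham-PF against Wistar, 0 for the GK groups against each other and 2 for GK-S-30 against Wistar. These 3 counts, in this order, were 3, 1 and 1 with normexp background, 3, 0 and 1 with no filter on dim probes, 1, 0 and 0 with the slide as a fixed block, 4, 3 and 3 with the methods' Tukey comparison, 2, 0 and 1 with its p-values adjusted over probes, 6, 3 and 3 with array weights, and 5, 2 and 3 without the 2 dim arrays, a setting chosen after seeing the data. Leaving out 1 array at a time gave 2 to 5, 0 to 1 and 1 to 2. The counts were 3, 0 and 2 in the other alternatives that were run. Over the whole array, the probes that passed numbered 1342, 1424 and 4101, and became 210, 327 and 268 with the slide block, 3069, 2327 and 5441 with array weights, 2373, 2565 and 4690 with the Tukey comparison, 1572, 1880 and 4775 without the dim arrays, and 827, 565 and 2690 with adjusted Tukey p-values.

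Of the fold changes of single probes over all alternatives, 1042 kept their direction and side of the threshold, 26 newly passed, 18 no longer passed and 21 changed sign, the last for differences that had not passed. Between the GK groups, Tap2 was 0.032 with 75th percentile scaling, 0.035 with normexp background, 0.086 with array weights, 0.113 without the dim arrays and -0.183 to 0.113 with 1 array left out, and Psmb8 was 0.106 with the slide block. For GK-S-30 against Wistar, 75th percentile scaling gave 0.042 for Psme1 and 0.058 for Psmb10. The slide block gave -0.031 for Tapbp, 0.138 for Psme1 and 0.026, 0.032 and 0.0081 for B2m probes 1, 2 and 4. Psmb10 was 0.036 with array weights and 0.036 without the dim arrays. With 1 array left out, B2m probe 1 ran from -0.0995 to 0.029, Psme1 from -0.126 to 0.017 and Psmb10 from -0.079 to 0.036. The cause was not tested.

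The replicate numbers gave no sign of pairing: after group means were taken off, arrays of the same number correlated at -0.29 to 0.20 and other pairs at -0.41 to 0.62. With the replicate number as a block, the counts stayed at 3, 0 and 2, and those over the whole array were 986, 963 and 3350.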
